A study of Homo sapiens with 12 samples.

Results

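Cholesterol and fatty acid synthesis genes were followed in HEK293T, a line from human embryonic kidney, in cells that carried a control vector or a TRPML3 plasmid and were kept with or without serum. The 31 genes were chosen by name for their place in sterol and fatty acid synthesis and its control. They comprised 7 genes of the mevalonate and isoprenoid steps, 11 of the squalene and sterol steps, 6 of sterol sensing and transport, and 7 of fatty acid synthesis, elongation and desaturation. Each symbol matched 1 of the 41878 rows of the count table, and all 31 members were among the 18030 genes that passed the filter on low counts.

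TRPML3, encoded by MCOLN3, is a cation channel of endosomes and lysosomes. All cells were transfected with 1 µg of plasmid by a lipid reagent, and each group held 3 biological replicates. The vector fed and TRPML3 fed groups stayed in 10% serum, while the vector starved and TRPML3 starved groups spent 4 h in 0% serum before RNA extraction, a treatment the submitters used to start autophagy. Polyadenylated RNA was sequenced. The model is a single cell line with transient overexpression, and the share of cells that took up the plasmid is not given in the sources used here.

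Cells make cholesterol from acetyl-CoA through mevalonate, isoprenoid units, squalene and lanosterol. The pathway is set by sterol regulatory element-binding proteins (SREBPs), transcription factors made as membrane precursors in the endoplasmic reticulum. When membrane sterol is low, the escort protein SCAP carries them to the Golgi, where proteases release the part that enters the nucleus. When sterol is plentiful, INSIG proteins hold SCAP back. SREBF2 encodes the form that mainly serves cholesterol genes, and SREBF1 encodes forms that also serve fatty acid genes. Serum supplies lipoprotein cholesterol that reaches the cell through endosomes and lysosomes.

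Promoter sequences are shown for 6 of the members discussed below: INSIG1, MSMO1, HMGCS1, NSDHL, EBP and SREBF2. IDI1, also discussed below, is not shown. It has 3 entries, with 3, 2 and 0 CCAAT matches. Each spans 250 bases before to 50 bases after a RefSeq gene start in GRCh38.p14 and is written 5′ to 3′ on the gene's strand. Capitals mark TCACNCCAC (a sterol regulatory element), CCAAT or its reverse complement (the box of the factor NF-Y, a usual partner of SREBPs) and CACGTG (an E-box). The windows are chr7:155297628-155297927 (plus strand) for INSIG1, chr4:165327419-165327718 (plus) for MSMO1, chr5:43313363-43313662 (minus) for HMGCS1, chrX:152830813-152831112 (plus) for NSDHL, chrX:48521558-48521857 (plus) for EBP and chr22:41832855-41833154 (plus) for SREBF2. HMGCS1 has 2 entries, and the one with CCAAT boxes is shown.
INSIG1: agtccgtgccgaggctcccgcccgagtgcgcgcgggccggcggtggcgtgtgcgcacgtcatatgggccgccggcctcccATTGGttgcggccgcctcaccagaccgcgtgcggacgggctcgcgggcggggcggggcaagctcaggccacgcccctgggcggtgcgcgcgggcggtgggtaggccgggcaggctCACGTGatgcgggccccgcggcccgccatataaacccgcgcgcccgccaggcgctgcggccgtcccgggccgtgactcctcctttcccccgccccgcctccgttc
MSMO1: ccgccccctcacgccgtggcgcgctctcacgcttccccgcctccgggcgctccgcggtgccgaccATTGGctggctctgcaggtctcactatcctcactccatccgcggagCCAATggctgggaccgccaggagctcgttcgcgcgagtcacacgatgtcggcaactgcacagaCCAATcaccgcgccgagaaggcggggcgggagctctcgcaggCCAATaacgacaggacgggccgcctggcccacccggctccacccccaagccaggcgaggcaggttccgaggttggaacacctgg
HMGCS1: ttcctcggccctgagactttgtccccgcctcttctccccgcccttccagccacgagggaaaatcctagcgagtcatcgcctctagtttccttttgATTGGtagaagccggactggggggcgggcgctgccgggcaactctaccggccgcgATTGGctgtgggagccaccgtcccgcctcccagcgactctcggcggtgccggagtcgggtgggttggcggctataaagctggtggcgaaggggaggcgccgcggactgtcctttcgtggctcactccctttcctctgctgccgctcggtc
NSDHL: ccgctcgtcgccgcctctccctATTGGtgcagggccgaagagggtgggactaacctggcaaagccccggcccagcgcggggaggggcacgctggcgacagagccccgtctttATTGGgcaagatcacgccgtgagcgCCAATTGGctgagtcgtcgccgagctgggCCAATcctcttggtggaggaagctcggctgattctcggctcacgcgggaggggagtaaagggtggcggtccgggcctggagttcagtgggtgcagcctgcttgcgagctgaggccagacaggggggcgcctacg
EBP: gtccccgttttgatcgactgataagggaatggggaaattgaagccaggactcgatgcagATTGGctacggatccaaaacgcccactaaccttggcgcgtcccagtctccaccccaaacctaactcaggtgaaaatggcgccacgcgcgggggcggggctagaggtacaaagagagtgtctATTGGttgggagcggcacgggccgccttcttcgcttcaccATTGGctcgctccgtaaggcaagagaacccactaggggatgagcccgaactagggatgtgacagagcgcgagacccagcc
SREBF2: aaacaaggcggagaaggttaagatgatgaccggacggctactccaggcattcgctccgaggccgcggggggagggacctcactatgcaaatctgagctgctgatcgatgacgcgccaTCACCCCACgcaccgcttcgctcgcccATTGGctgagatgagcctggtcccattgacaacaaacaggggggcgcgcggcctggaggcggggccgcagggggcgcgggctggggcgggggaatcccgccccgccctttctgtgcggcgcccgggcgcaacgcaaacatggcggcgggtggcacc

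The windows of INSIG1, MSMO1, NSDHL, EBP and SREBF2 held from 1 CCAAT match (INSIG1 and SREBF2) to 5 (NSDHL, where a pair of matches on opposite strands overlapped). The HMGCS1 window was chosen for its 2 matches, and the other HMGCS1 entry, chr5:43313132-43313431, had 0. RefSeq promoter entries matched 27 of the 31 members, with 37 entries between them; FDFT1, SQLE, ACAT2 and FASN had none. Searched on both strands, CCAAT stood in 24 of the 37 entries (64.9%), against 34.6% of all 35116 promoters of the same length. GGGCGG, the Sp1 box, stood in 33 of 37 (89.2%), against 45% of all promoters, and is not capitalised above. CACGTG stood in 5 of 37 (13.5%), against 7.26%, and TCACNCCAC stood in 1 of 37 (2.7%), that of SREBF2, against 1.13%. Entries of the same gene can overlap and share a match, as the 2 of SC5D do for CACGTG. By gene, CCAAT stood in 20, GGGCGG in 26, CACGTG in 4 and TCACNCCAC in 1 of the 27 members. These are matches of letters within 300 bases and were not tested for binding. The background took in all promoters, whether or not their genes were expressed here, and was not matched for base composition. The part of either in the differences was not tested.

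The 12 libraries held 33101540 to 43700547 counts each. MCOLN3, the gene on the plasmid, lay at 9.31 to 18.4 CPM (counts scaled to a common library size) in the 6 vector libraries and at 4929 to 58223 CPM in the 6 TRPML3 libraries, so every library matched its plasmid label. Of 5 genes known in HEK293T, LIN28B, NEFM and NEFL lay at or above 64.3 CPM in every library, EYA1 at 3.85 to 8.70 CPM and PAX2 at 0.838 to 5.32 CPM. Of 3 markers each, TTR (hepatocyte), FABP4 (adipocyte) and HBB (blood) were at 0 in all 12 libraries. The hepatocyte markers summed to 0.234 to 2.05 CPM, with ALB above 0 in every library, and the adipocyte markers to 0.587 to 2.10 CPM, with PLIN1 above 0 in every library. Blood markers summed to at most 0.480 CPM and endothelial markers to at most 0.494 CPM. The 3 fibroblast markers, nearly all COL1A1, summed to 1.06 to 20.8 CPM in fed and 0.517 to 17.6 CPM in starved libraries, and the part of any of these markers in the results was not tested. The typical spread between replicates was wide, with a common biological coefficient of variation of 0.527 fitted to all genes together. Coefficients fitted gene by gene had a median of 0.348 over the members, from 0.204 for ACAT2 to 0.828 for ACACA. These are different measures, so they do not rank the members against other genes.

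The libraries numbered 3 stood apart from those numbered 1 and 2. For each plasmid and number, the starved-minus-fed difference in log2(CPM + 0.5) was taken for all 18030 genes, pairing the libraries by number only. Across genes, the differences of numbers 1 and 2 correlated with each other in all 6 pairings, at r = 0.217 to 0.265. Those of number 3 correlated with them at r = -0.132 to -0.0753 in all 8 pairings, and at r = 0.281 with each other across the 2 plasmids. No pair of differences compared here shared a library, and genes are not independent replicates. MCOLN3 itself split in the same way: in TRPML3 fed cells it was at 6211, 4929 and 39972 CPM in replicates 1, 2 and 3, and in TRPML3 starved cells at 41362, 58223 and 16896 CPM. The share of mitochondrial counts was also highest in number 3, at 4.83% to 5.70%, against 2.81% to 4.40% in number 1 and 1.05% to 2.52% in number 2. What sets the libraries numbered 3 apart was not tested, and neither was whether their serum labels are right. The labels were kept as given, and every serum value from all 12 libraries rests on them. The average serum difference is given with and without number 3 for every member.

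Levels of different genes were compared as CPM per kilobase of exon, which was possible for 30 members (the identifier of the FDFT1 row, ENSG00000284967, is not in the GENCODE 29 annotation used for lengths). The length joined all annotated exons of a gene, so it can exceed that of any single transcript, which lowers the value. SCD, the stearoyl-CoA desaturase, stood first, with a median of 113.6 and a range of 69.1 to 181 CPM per kilobase over the 12 libraries. SC5D, a late sterol desaturase, followed at 85.5 (49.2 to 99.0), and ACLY, which makes cytosolic acetyl-CoA from citrate, at 68.1 (22.0 to 96.5). CYP51A1 (58.5), HMGCS1 (35.4), IDI1 (33.0), SQLE (27.3), MSMO1 (25.7), FDPS (21.9) and INSIG1 (20.9) came next on this scale. Neighbours in this order overlapped in range, so the first 10 places are not a firm ranking. By that annotation, exons of 14 of the 30 members share bases with exons of another gene, 7 of them with a protein-coding gene, CYP51A1 among them.

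At the low end of the same scale lay SCAP and MVK, both at a median of 1.24 CPM per kilobase, FADS2 at 0.963 and SREBF1 at 0.659. Their joined exon lengths were 6.43, 6.48, 11.03 and 8.03 kilobases in that order, and the part of length in these places was not tested. SREBF2 lay at 6.79 (2.37 to 13.6), above the whole range of SREBF1, which was 0.234 to 0.915 CPM per kilobase. Of the 2 INSIG genes, INSIG1 had a median of 20.9 (7.16 to 49.97) and INSIG2 of 9.25 (1.37 to 12.4), with overlapping ranges.

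Single members varied widely between the 12 libraries. The highest of the 12 CPM values was over 4 times the lowest for 10 of 31 members (32.3%), close to the 31.3% of 10745 genes with at least the same mean level. ACACA, the acetyl-CoA carboxylase that commits acetyl-CoA to fatty acids, had the widest ratio, 27.5. Its CPM were 19.4, 58.2 and 61.9 in fed and 51.8, 54.6 and 67.5 in starved vector cells, and 54.7, 29.4 and 2.74 in fed and 49.3, 2.46 and 53.5 in starved TRPML3 cells. A single library of each TRPML3 group, carrying different replicate numbers, was thus far below the rest. At the other end ACAT2, a cytosolic acetyl-CoA acetyltransferase, ranged only from 62.9 to 83.8 CPM, a ratio of 1.33, and the desaturase FADS1 had a ratio of 1.37.

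**Figure D1:**
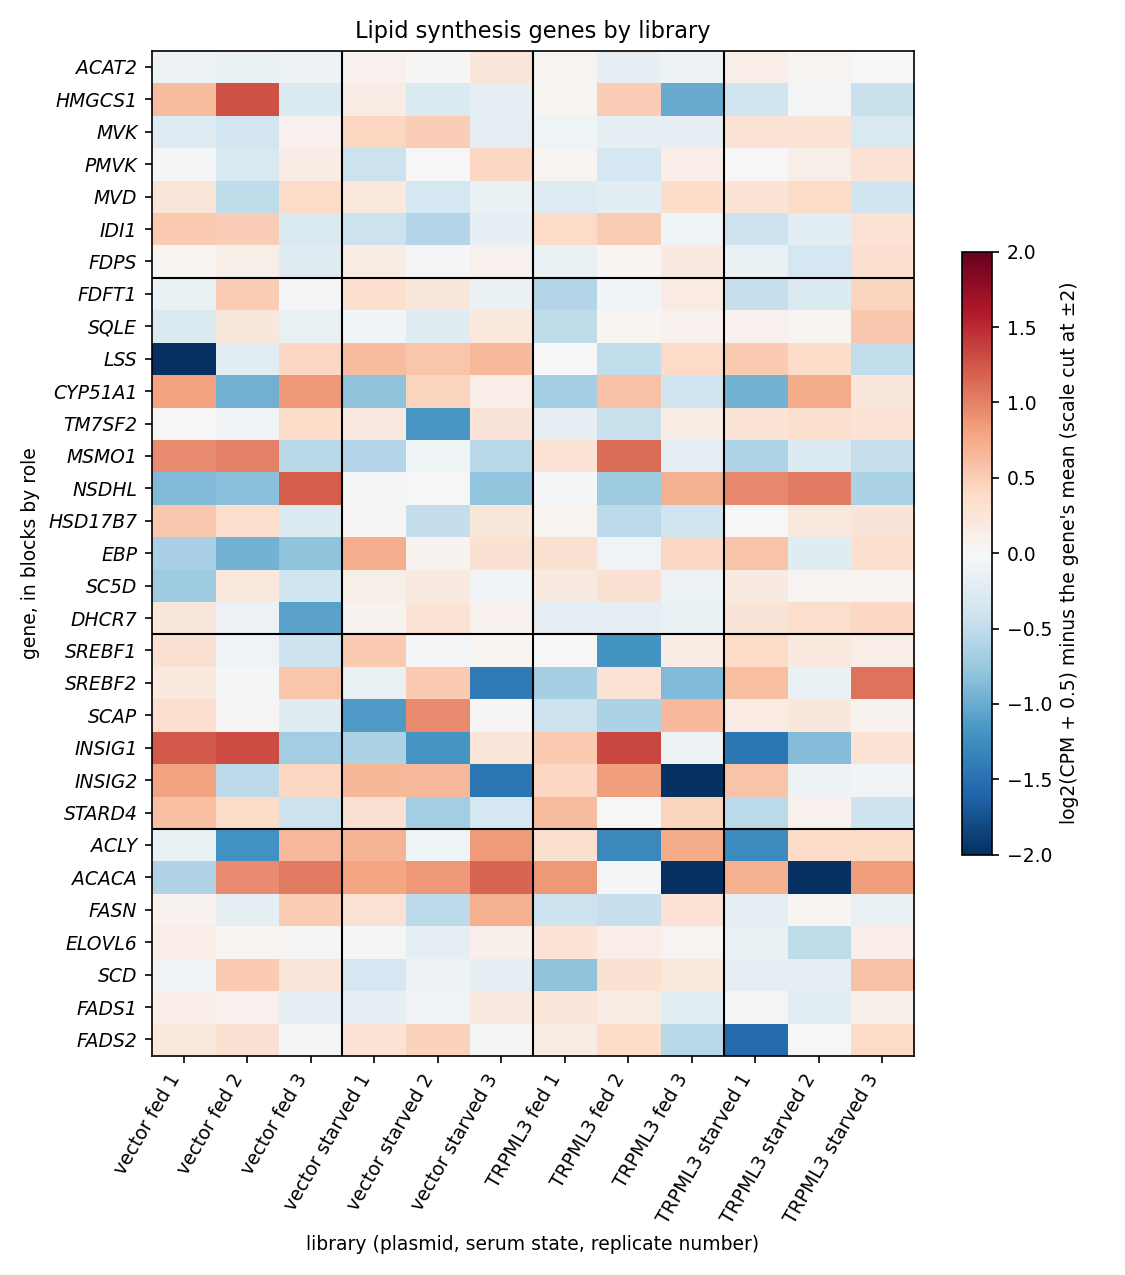
Each member's log2(CPM + 0.5) minus its own mean over the 12 libraries, in columns by group and replicate and in rows by pathway role; colour gives the difference on the log2 scale, capped at 2 either way. INSIG1, IDI1 and MSMO1 are high in fed replicates 1 and 2 of both plasmids, and fed replicate 3 is the lowest of its group for these and for HMGCS1; ACACA shows the 2 far lower TRPML3 libraries.

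The serum comparison asked how 4 h without serum altered these genes. With all 12 libraries and both plasmids averaged, no member passed the test. The members with the largest values were INSIG1 at -1.24 and MSMO1 at -0.98 on the log2 scale (starved minus fed), with EBP at 0.63, LSS at 0.58, STARD4 at -0.54, IDI1 at -0.52 and HMGCS1 at -0.51. Without the libraries numbered 3, INSIG1, MSMO1 and IDI1 fell and NSDHL rose, each at an adjusted p below the threshold of 0.05. Number 3 was singled out by its starved-minus-fed difference, the quantity tested here, so its removal favours such calls, and they are a description and not independent evidence. In either fit the members as a whole did not move one way: 19 of 31 had a log2 fold change above 0 and 12 below with all libraries, and their median was 0.07, against 0.01 over all genes.

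Of the 31 members, 0 passed an adjusted p of 0.05 (edgeR's quasi-likelihood test, Benjamini-Hochberg adjustment over 18030 genes), and 0 of all genes did (0%). At an unadjusted p of 0.05, 2 members were higher and 3 lower, against a background of 4.66% of genes higher and 4.79% lower. DESeq2's Wald test called 287 genes in this comparison and 0 members. For no member did all 6 starved libraries lie on one side of all 6 fed libraries, which was so for 0.754% of genes in the higher and 0.499% in the lower direction. By role, the median log2 fold change was 0.02 for the mevalonate genes, 0.11 for the sterol genes, 0.06 for the sensing genes and -0.07 for the fatty acid genes. In bulk RNA, fewer cells expressing a gene and less of its RNA per cell cannot be told apart.

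Among the sensing genes, INSIG1 (ENSG00000186480, chr7:155297776-155310235, GRCh38, plus strand) encodes the protein that retains SCAP in the endoplasmic reticulum and is itself a classic SREBP target. In replicates 1, 2 and 3 its CPM were 169, 179 and 44.2 in fed and 46.3, 31.6 and 85.1 in starved vector cells. They were 104, 182 and 67.1 in fed and 26.1, 39.4 and 87.7 in starved TRPML3 cells. In numbers 1 and 2 all 4 fed libraries lay above all 4 starved ones, whereas in number 3 both starved libraries lay above both fed ones. The average difference was -1.24 ± 0.44 (SE) on the log2 scale, adjusted p = 0.431, and without number 3 it was -2.13 ± 0.26, adjusted p = 0.0259 by the same test. Within a plasmid the differences were -1.27 ± 0.63 in vector cells and -1.21 ± 0.63 in TRPML3 cells, neither called. Without number 3 they were -2.14 ± 0.36 (adjusted p = 0.138) and -2.12 ± 0.36 (adjusted p = 0.106), also not called.

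STARD4 carries sterol between membranes. Its CPM were 52.9, 44.6 and 25.4 in fed and 42.7, 21.2 and 26.9 in starved vector cells, and 53.8, 34.2 and 47.3 in fed and 23.6, 36.6 and 25.9 in starved TRPML3 cells. The groups overlapped in both plasmids. On average it differed by -0.54 ± 0.25 on the log2 scale (adjusted p = 0.534), and -0.57 ± 0.30 without number 3 (adjusted p = 0.325), so it was of like size in both fits and was not called in either.

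SREBF2, the cholesterol-directed SREBP gene, had 55.5, 47.1 and 71.4 CPM in fed and 43.8, 69.4 and 17.9 in starved vector cells, and 30.4, 59.3 and 26.0 in fed and 73.9, 43.8 and 103 in starved TRPML3 cells. The lowest and the highest of the 12 values both came from starved libraries numbered 3, and the groups overlapped. On average starved and fed cells differed by 0.26 on the log2 scale (adjusted p = 0.875), and by 0.28 ± 0.30 without number 3. SREBF1 was scarce, at 6.20, 4.68 and 3.59 CPM in fed and 7.35, 4.87 and 5.09 in starved vector cells, and 4.92, 1.88 and 5.54 in fed and 6.66, 5.75 and 5.50 in starved TRPML3 cells. Fed and starved values overlapped in both plasmids, with an average difference of 0.40 (adjusted p = 0.718), and 0.53 ± 0.35 without number 3. Its exons share bases with those of RAI1 on the opposite strand, and whether counting used strand is not given in the sources used here.

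SCAP, the escort, had 9.91, 7.86 and 6.43 CPM in fed and 3.26, 15.2 and 7.81 in starved vector cells, and 5.59, 4.82 and 12.3 in fed and 8.73, 9.07 and 8.11 in starved TRPML3 cells. The vector starved libraries held both its lowest and its highest value, and the average difference was 0.15 ± 0.36 (adjusted p = 0.944), and 0.43 ± 0.47 without number 3. INSIG2, the sterol-sensing partner of INSIG1, ranged from 5.41 to 48.9 CPM, with fed libraries spanning 5.41 to 48.9 and starved ones 9.68 to 43.5, and differed by -0.04 ± 0.52 on the log2 scale, and by 0.01 ± 0.33 without number 3.

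**Figure D2:**
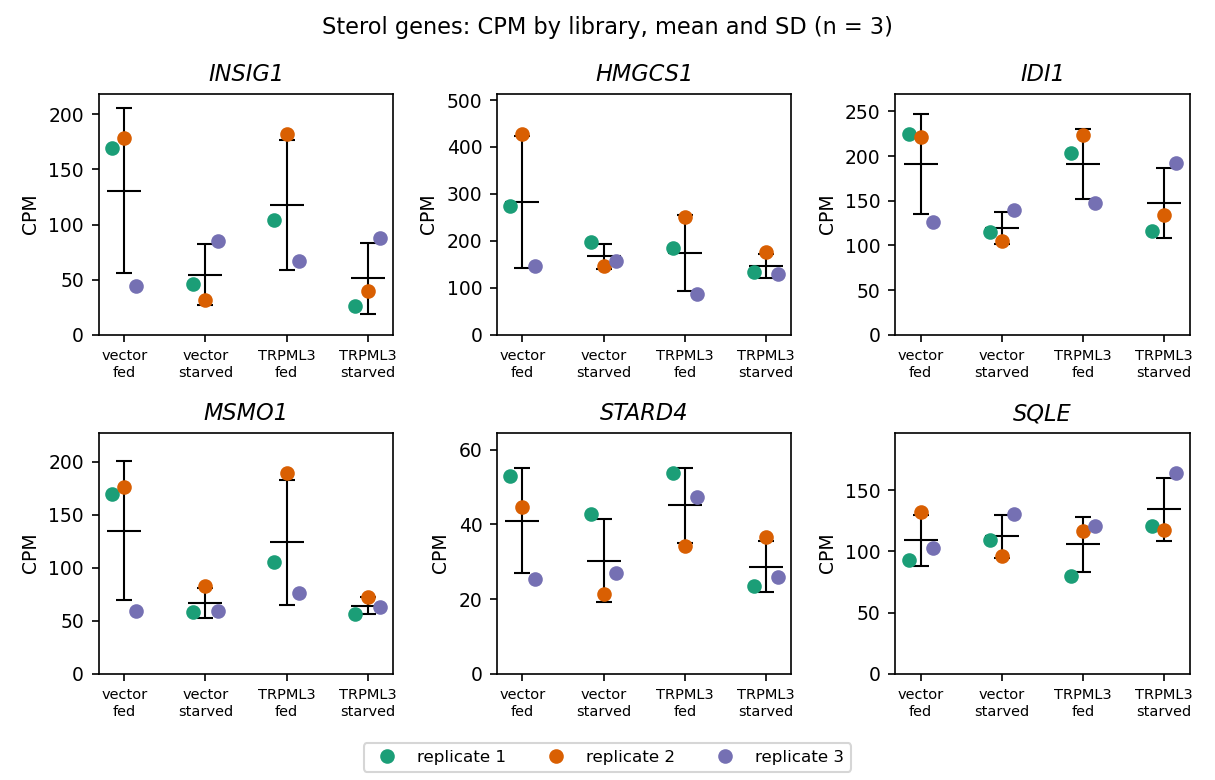
CPM of INSIG1, HMGCS1, IDI1, MSMO1, STARD4 and SQLE in the 12 libraries by group (vertical axis, CPM from 0); each point is 1 library, coloured by replicate number, and the horizontal line is the group mean with its SD as whiskers. For INSIG1 the points of replicate 3 lie at 44.2 and 67.1 CPM in the fed groups and at 85.1 and 87.7 CPM in the starved groups, the reverse order of replicates 1 and 2.

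Of the mevalonate genes, HMGCS1 (ENSG00000112972, chr5:43289395-43313512, minus strand), the synthase that makes HMG-CoA, showed the widest range. Its CPM were 275, 428 and 147 in fed and 197, 146 and 157 in starved vector cells, and 185, 250.2 and 87.5 in fed and 134, 175 and 130.0 in starved TRPML3 cells. Replicate 3 was the lowest fed library in both plasmids, and the groups overlapped. Averaged over the plasmids it differed by -0.51 ± 0.29 on the log2 scale (adjusted p = 0.636), and -0.75 ± 0.21 without number 3 (adjusted p = 0.103), not called in either fit.

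IDI1 (ENSG00000067064, chr10:1039152-1049170, minus strand) is the isomerase that supplies dimethylallyl diphosphate. It had 225, 221 and 127 CPM in fed and 115, 104 and 139 in starved vector cells, and 204, 223 and 147 in fed and 117, 134 and 192 in starved TRPML3 cells. In numbers 1 and 2 the 4 fed values, 204 to 225, lay clear of the 4 starved values, 104 to 134, and in number 3 the starved library was the higher one in each plasmid. The average difference was -0.52 ± 0.19 on the log2 scale, adjusted p = 0.437, and without number 3 it was -0.88 ± 0.10, adjusted p = 0.0259.

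MVK, the mevalonate kinase, had 7.25, 6.67 and 9.32 CPM in fed and 12.1, 12.6 and 7.63 in starved vector cells, and 8.26, 7.71 and 7.79 in fed and 10.8, 10.7 and 7.06 in starved TRPML3 cells. Starved replicates 1 and 2 were above every fed library, and starved replicate 3 was not. Its average difference was 0.37 ± 0.20 on the log2 scale (adjusted p = 0.613), and 0.64 ± 0.15 without number 3 (adjusted p = 0.0700). MVK exons overlap those of MMAB on the opposite strand. The remaining 4 mevalonate genes differed little on average: ACAT2 by 0.18 ± 0.10, PMVK by 0.15, FDPS by 0.02 and MVD by -0.02 on the log2 scale. For ACAT2 all 3 vector starved values, 71.7 to 83.8 CPM, lay above all 3 vector fed values, 64.3 to 65.9 CPM, while the TRPML3 groups overlapped; its exons overlap those of TCP1 and SOD2 on the opposite strand.

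Of the sterol genes, MSMO1 (ENSG00000052802, chr4:165327623-165343160, plus strand), the C4-methyl sterol oxidase that demethylates lanosterol products, had the smallest p of all members in the average serum comparison with all libraries. Its CPM were 169, 176 and 59.4 in fed and 57.8, 82.7 and 59.2 in starved vector cells, and 106, 189 and 76.3 in fed and 56.6, 72.5 and 63.1 in starved TRPML3 cells. In TRPML3 cells every starved value lay below every fed one, and in vector cells fed replicate 3 lay among the starved values. The average difference was -0.98 ± 0.30 on the log2 scale, adjusted p = 0.366, and without number 3 it was -1.23 ± 0.23, adjusted p = 0.0465.

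NSDHL (ENSG00000147383, chrX:152830967-152869729, plus strand) works beside MSMO1 as the sterol dehydrogenase of the same demethylation. It had 11.4, 11.8 and 50.4 CPM in fed and 21.0, 21.6 and 12.2 in starved vector cells, and 20.9, 13.0 and 35.6 in fed and 42.3, 44.3 and 13.6 in starved TRPML3 cells. In numbers 1 and 2 the starved library was the higher one in each plasmid, and in number 3 it was the lower one in each. With all libraries the average difference was 0.05 ± 0.46 on the log2 scale (adjusted p = 0.987), and without number 3 it was 1.12 ± 0.19 (adjusted p = 0.0389). NSDHL thus differed in the opposite direction to MSMO1, its partner in the pathway, once number 3 was left out.

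EBP (ENSG00000147155, chrX:48521158-48528716, plus strand), the sterol isomerase, had 12.5, 10.0 and 11.1 CPM in fed and 33.2, 20.9 and 24.6 in starved vector cells, and 24.7, 18.9 and 26.7 in fed and 29.8, 16.7 and 25.0 in starved TRPML3 cells. The vector fed libraries were the 3 lowest of the 12, with no overlap, and the other groups overlapped each other. The average serum difference was 0.63 ± 0.20 on the log2 scale (adjusted p = 0.381), made up of 1.23 ± 0.29 in vector cells (adjusted p = 1) and 0.02 ± 0.28 in TRPML3 cells. DESeq2's Wald test put the vector difference past the threshold, with an adjusted p of 0.0114, the only member called by that test in any of the 7 comparisons. Without number 3 the vector value was 1.28 ± 0.39, not called.

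DHCR7, which makes cholesterol from its last precursor, had 55.7, 43.5 and 22.4 CPM in fed and 49.7, 57.5 and 50.6 in starved vector cells, and 42.1, 41.5 and 43.3 in fed and 57.1, 60.4 and 63.4 in starved TRPML3 cells. The TRPML3 groups did not overlap, and the vector groups did. Its average difference was 0.44 ± 0.20 on the log2 scale (adjusted p = 0.516), and 0.31 ± 0.14 without number 3 (adjusted p = 0.237). SQLE, the squalene monooxygenase, had 92.6, 132 and 102 CPM in fed and 109, 96.2 and 131 in starved vector cells, and 79.9, 117 and 121 in fed and 121, 118 and 164 in starved TRPML3 cells. Its groups overlapped, and the average difference was 0.19 ± 0.16 (adjusted p = 0.781).

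LSS, which closes squalene epoxide to lanosterol, had 3.51, 16.2 and 25.5 CPM in fed and 29.3, 28.3 and 30.1 in starved vector cells, which did not overlap. In TRPML3 cells it had 19.0, 13.4 and 24.9 CPM fed and 27.6, 24.7 and 13.4 starved, which did. Over both plasmids LSS differed by 0.58 ± 0.40 on the log2 scale (adjusted p = 0.713), and by 1.13 ± 0.47 without number 3 (adjusted p = 0.222). The other sterol genes were SC5D at 0.15, TM7SF2 at 0.11, HSD17B7 at 0.08, FDFT1, the squalene synthase, at 0.05 and CYP51A1, the lanosterol demethylase, at -0.10 ± 0.40 on the log2 scale, with adjusted p of 0.823 or above. CYP51A1 ranged from 95.1 to 339 CPM within the vector fed group alone. Its exons overlap those of the protein-coding genes AC000120.2 and AC000120.3 on the same strand.

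Among the fatty acid genes, FASN, the fatty acid synthase, had 121, 100.5 and 165 CPM in fed and 141, 80.0 and 188 in starved vector cells, and 86.4, 83.5 and 141 in fed and 102, 119 and 104 in starved TRPML3 cells. The groups overlapped, and the average difference was 0.07 ± 0.23 on the log2 scale (adjusted p = 0.959). SCD had 615, 930.4 and 769.5 CPM in fed and 513, 603 and 565 in starved vector cells, and 370.5, 796 and 753 in fed and 569, 570.1 and 971 in starved TRPML3 cells. All vector starved values lay below all vector fed ones, and the TRPML3 groups overlapped. The average difference of SCD was -0.16 ± 0.21 on the log2 scale (adjusted p = 0.870), with -0.46 ± 0.30 in vector cells and 0.14 ± 0.30 in TRPML3 cells.

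The other 5 fatty acid genes ranged on average from -0.20 ± 0.13 for the elongase ELOVL6 to 0.30 ± 0.73 for ACACA on the log2 scale. ACLY was at 0.21 ± 0.43, the desaturase FADS1 at -0.07 ± 0.13 and FADS2 at -0.07 ± 0.33. Exons of FADS1 and FADS2 overlap each other on opposite strands, so reads of one could have been counted for the other. FADS2 exons also overlap those of FEN1 on the same strand. The adjusted p of these 5 genes lay between 0.690 and 0.977. Without number 3, ACACA was at -0.11 ± 0.86, on the other side of 0, ACLY at 0.50 ± 0.54 and FADS2 at -0.37 ± 0.37, none called.

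**Figure D3:**
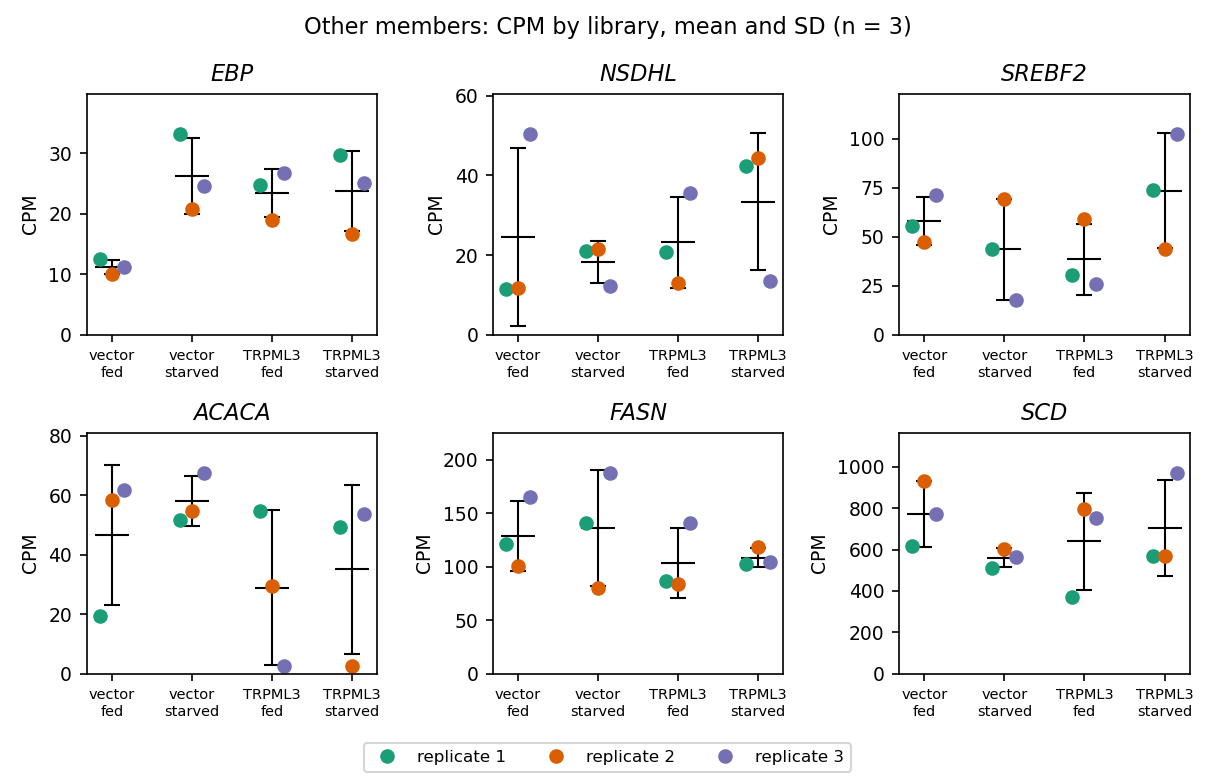
CPM of EBP, NSDHL, SREBF2, ACACA, FASN and SCD in the 12 libraries by group (vertical axis, CPM from 0); each point is 1 library, coloured by replicate number, and the horizontal line is the group mean with its SD as whiskers. The 3 vector fed points of EBP, 10.0 to 12.5 CPM, lie below its other 9 points, and the NSDHL points of replicate 3 are the highest of the fed and the lowest of the starved groups.

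Seen in each plasmid on its own, starvation gave no called member. In vector cells 0 of 31 passed the adjusted p, against 0.00555% of all genes. At an unadjusted p of 0.05, 1 was higher (EBP) and 2 lower (IDI1 at -0.67 ± 0.27 and MSMO1 at -1.02 ± 0.42), against backgrounds of 2.23% and 2.21%. Groups did not overlap for EBP, LSS and ACAT2, all higher in starved cells (background 5.36%), and for SCD, lower (background 4.57%). By DESeq2's Wald test 43 genes were called in vector cells, EBP among them.

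In TRPML3 cells 0 of 31 passed, as did 0% of all genes, and the smallest adjusted p of a member was 0.869. At an unadjusted p of 0.05, 0 members were higher and MSMO1 alone was lower (-0.95 ± 0.42), against 2.74% and 2.97% of genes. DHCR7 and TM7SF2 were higher in all 3 starved than in all 3 fed libraries (background 5.56%) and MSMO1 was lower (background 5.66%). By the same DESeq2 test 88 genes and 0 members were called in TRPML3 cells. TM7SF2, a sterol reductase whose exons overlap those of VPS51 on the same strand, had 4.44, 3.54 and 5.61 CPM in fed and 6.16, 6.38 and 6.25 in starved TRPML3 cells. Its vector groups overlapped, at 5.08, 4.82 and 6.63 CPM fed and 5.73, 1.98 and 6.12 starved.

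The 2 serum comparisons used different libraries throughout. Same-numbered libraries of the 2 plasmids deviated together from their group means, so the comparisons were not fully independent. INSIG1 and MSMO1, picked for the largest values averaged over both, had nearly the same value in each. These were -1.27 and -1.21 for INSIG1 and -1.02 and -0.95 for MSMO1 on the log2 scale. Some other members differed between the plasmids, at 1.23 and 0.02 for EBP, -0.41 and 0.93 for SREBF2 and -0.43 and 0.53 for NSDHL. Without number 3 the INSIG1 values were -2.14 and -2.12. The median over the members was 0.01 in vector and 0.13 in TRPML3 cells, against -0.01 and 0.01 over all genes.

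**Figure D4:**
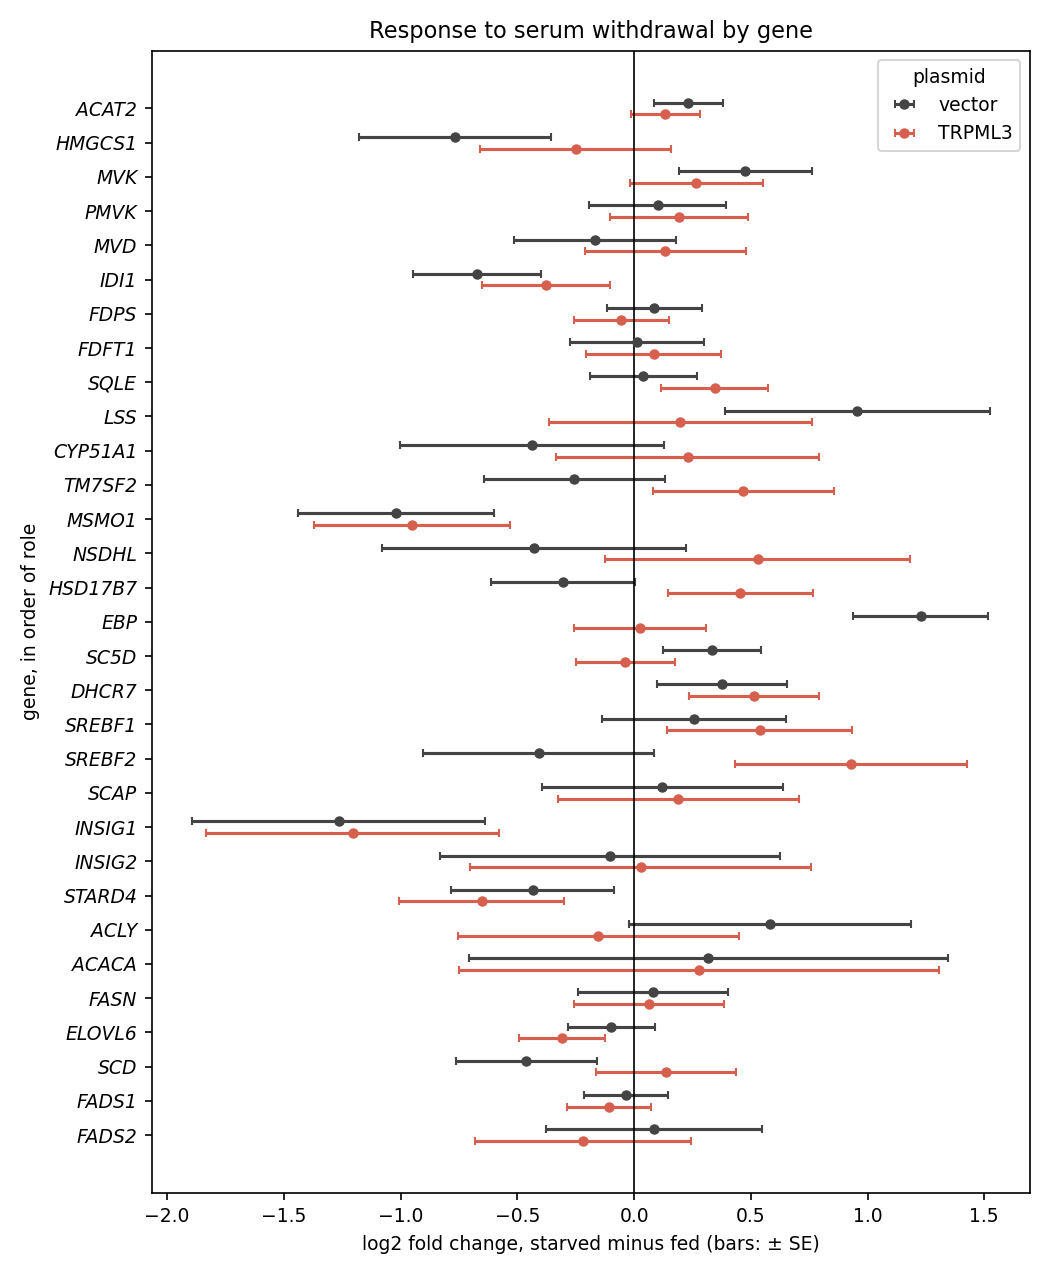
Log2 fold change, starved minus fed, of all 31 members in vector cells and in TRPML3 cells, with standard errors as bars (horizontal axis, log2 scale; vertical line at 0), ordered by role. INSIG1 and MSMO1 lie left of 0 in both plasmids at -0.95 or lower, EBP lies right of 0 in vector cells at 1.23 and at 0.02 in TRPML3 cells, and no member passed the adjusted threshold.

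Leaving out the 4 libraries numbered 3 changed the serum result over all genes and among the members. The fit to 8 libraries called 810 of 18052 genes (4.49%), of which 459 were higher (2.54%) and 351 lower (1.94%) in starved cells. It called 4 of 31 members (12.9%), with INSIG1, IDI1 and MSMO1 lower and NSDHL higher. Leaving out number 1 instead called 1 gene and 0 members, and leaving out number 2 called 0 genes and 0 members. The median over the members stayed small at 0.09, against -0.02 over all genes.

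The other 27 members were not called in that fit. Among them, SQLE was at 0.09 ± 0.18, FASN at 0.20 ± 0.20, SCD at -0.24 ± 0.26 and FDPS at -0.09 ± 0.12 on the log2 scale. ELOVL6 at -0.35 ± 0.13 (adjusted p = 0.172) and FADS1 at -0.26 ± 0.10 (adjusted p = 0.182) were also below 0. MVD, at 0.33 ± 0.25, and HSD17B7, at -0.16 ± 0.23, lay on the other side of 0 from their values with all libraries. EBP was at 0.69 ± 0.27, ACAT2 at 0.17 ± 0.11, TM7SF2 at 0.16, SC5D at 0.12, PMVK at 0.10, FDFT1 at 0.01 and CYP51A1 at -0.07. Within vector cells alone the 8-library fit called 0 members, with IDI1 closest at an adjusted p of 0.135, and within TRPML3 cells 0, with INSIG1 closest at 0.106.

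The members that put replicate 3 at an edge could be counted directly. Fed replicate 3 was the lowest of its group in both plasmids for 7 members (HMGCS1, IDI1, MSMO1, INSIG1, ELOVL6, FADS1 and FADS2), 22.6% against 23% of all genes. It was the highest in both for 7 others (PMVK, MVD, LSS, TM7SF2, NSDHL, ACLY and FASN), against 22.2% of all genes. Starved replicate 3 was the highest in both plasmids for 8 members (PMVK, IDI1, SQLE, HSD17B7, INSIG1, ACACA, ELOVL6 and FADS1), 25.8% against 22.7%, and the lowest for 3 (MVK, NSDHL and SC5D), 9.68% against 21.4%. For numbers 1 and 2 the shares over all genes were 10.2% to 13%. Among the members, fed replicate 2 was the lowest in both plasmids for 7 (22.6%, against 12.3% of all genes), as many as fed replicate 3, and the highest for 6 (19.4%, against 13%). Fed replicate 1 was the lowest for 3 and the highest for 5, starved replicate 1 the lowest for 5 and the highest for 3, and starved replicate 2 the lowest for 4 and the highest for 4.

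**Figure D5:**
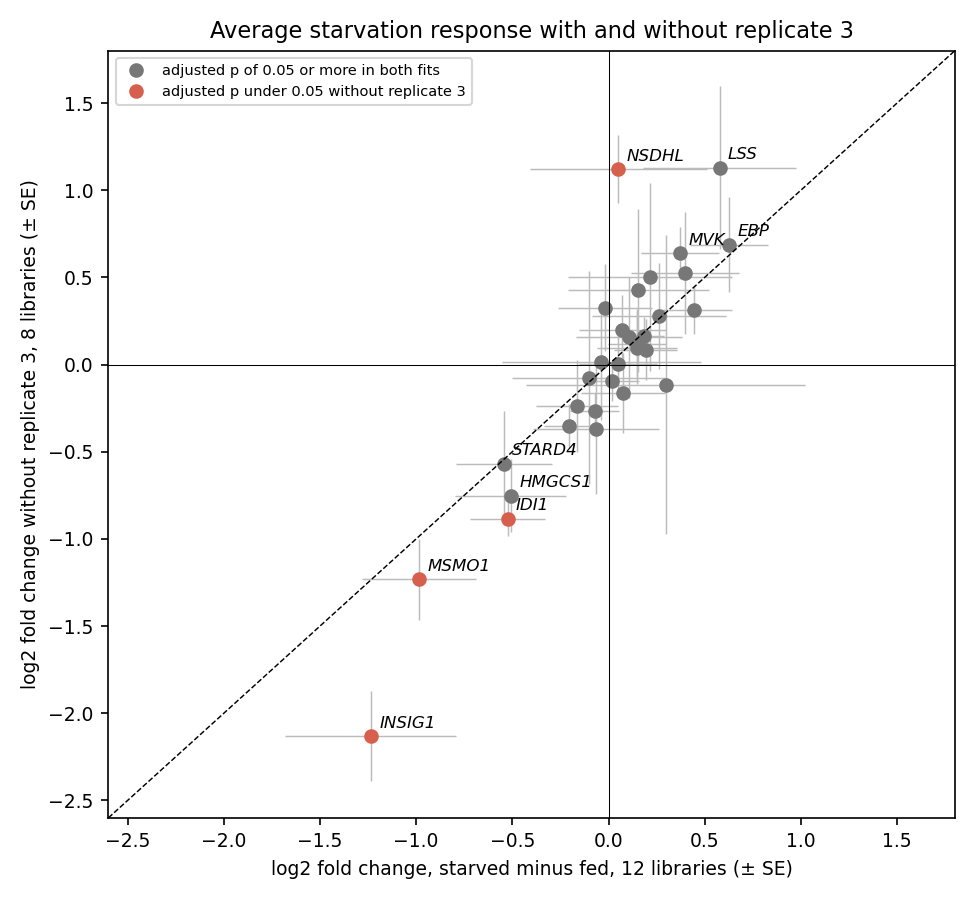
Average log2 fold change, starved minus fed, of the 31 members, with all 12 libraries on the horizontal and without the 4 libraries numbered 3 on the vertical axis, with standard errors as bars (log2 scale; dashed line where both are equal). INSIG1 moves from -1.24 to -2.13, NSDHL from 0.05 to 1.12 and IDI1 from -0.52 to -0.88, and the members called in the smaller fit are INSIG1, IDI1, MSMO1 and NSDHL.

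The plasmid comparison asked whether TRPML3 overexpression altered these genes. In fed cells EBP differed most, at 23.4 ± 4.03 CPM in TRPML3 and 11.2 ± 1.22 in vector cells (SD, n = 3). No other member had an unadjusted p below 0.05, and none passed the adjusted test. In starved cells the largest differences were in NSDHL and SREBF2, neither called.

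In fed cells 0 of 31 members were called, against 0.0111% of all genes. EBP was higher by 1.06 ± 0.29 on the log2 scale (adjusted p = 1) and was the only member without overlap between the groups (background 3.22% higher and 3.87% lower). At an unadjusted p of 0.05 it stood alone, against 0.998% of genes higher and 1.21% lower. SC5D had 274, 516 and 339 CPM with vector and 509, 551 and 418 with TRPML3 in fed cells, which overlapped, and differed by 0.39 ± 0.21. Its starved values were 486, 507 and 429.8 CPM with vector and 510.0, 466 and 465 CPM with TRPML3. HSD17B7, a sterol ketoreductase, had 12.4, 10.8 and 6.89 CPM with vector and 8.71, 5.65 and 6.26 with TRPML3 in fed cells, and differed by -0.55 ± 0.31. Its starved values were 8.57, 5.91 and 9.93 CPM with vector and 8.47, 9.67 and 10.1 CPM with TRPML3. HMGCS1 differed by -0.70 ± 0.41 (adjusted p = 1). The median over the members was -0.09, against -0.01 over all genes, and DESeq2's Wald test called 30 genes and 0 members.

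In starved cells 0 of 31 members were called, against 0.00555% of all genes, and 0 had an unadjusted p below 0.05, against 1.09% of genes higher and 1.11% lower. NSDHL was at 0.87 ± 0.65, SREBF2 at 0.75 ± 0.50 and TM7SF2 at 0.44 ± 0.39 on the log2 scale, all with an adjusted p of 1. NSDHL was the higher with TRPML3 in 3 of 3 libraries of the same number, and with the replicate number as a block it was at 0.91 (adjusted p = 1). Groups did not overlap for TM7SF2, higher with TRPML3 (background 3.02%), and for LSS, lower (background 3.56%). Of the SREBF2 difference little was left without number 3, at 0.06 ± 0.43, whereas NSDHL was at 1.03 ± 0.27 (adjusted p = 1). With DESeq2's Wald test 43 genes and 0 members were called.

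Averaged over both serum states, 0 of 31 members were called, against 0.0111% of all genes, and only EBP, at 0.46 ± 0.20 on the log2 scale, had an unadjusted p below 0.05, against 1.25% of genes higher and 1.37% lower. No member had all 6 libraries of one plasmid on one side of the 6 of the other, against 0.061% of genes higher and 0.0943% lower. The median over the members was -0.02, against -0.01 over all genes. INSIG1 (-0.12 ± 0.44), MSMO1 (-0.09 ± 0.29), SQLE (0.11 ± 0.16) and SCD (0.03 ± 0.21) were each near 0, with standard errors that leave room for moderate differences. ACACA, at -0.70 ± 0.73, had the lowest value, and it rests on the 2 far lower TRPML3 libraries given above. With DESeq2 the counts were 29 genes and 0 members.

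Whether the response to starvation differed between the plasmids was tested as an interaction, the response in TRPML3 cells minus that in vector cells. No member was called, as was 0% of all genes. EBP was at -1.20 ± 0.40 on the log2 scale (adjusted p = 1), the only member with an unadjusted p below 0.05, against 0.915% of genes in that direction and 1.16% in the other. The EBP values in the vector serum comparison, the fed plasmid comparison and the interaction all rest on the same 3 vector fed libraries and are not separate evidence. SREBF2 was at 1.34 ± 0.70 with all libraries and at 0.24 ± 0.60 without number 3, and HSD17B7 at 0.76 ± 0.44 and 1.01 ± 0.46. For INSIG1 the interaction was 0.06 ± 0.88 and for MSMO1 0.07 ± 0.59, so at this spread the difference between the plasmids was poorly determined for both. For the interaction DESeq2 called 27 genes and 0 members. MCOLN3 itself was at unlike levels in the TRPML3 groups, at 6211, 4929 and 39972 CPM fed and 41362, 58223 and 16896 CPM starved. The TRPML3 serum comparison, the plasmid comparisons and the interaction all span these levels. The part of the MCOLN3 level in them was not tested.

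Further genes of the pathway were counted in 4 lists, all of whose genes passed the filter on low counts. They were 14 further sterol and fatty acid genes, 15 genes of SREBP processing and sterol-regulated degradation, 15 of sterol uptake, transport, storage and efflux, and 13 of the isoprenoid branch. None was called in any of the 7 comparisons. In the average serum comparison the lists had medians of -0.05, 0.05, 0.04 and 0.23 on the log2 scale in that order, against 0.01 over all genes.

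Among further sterol and fatty acid genes, 0 of 14 were higher and 1 lower at an unadjusted p of 0.05 in the average serum comparison, where 4.66% of all genes were higher and 4.79% lower. ACSL3, which activates fatty acids at lipid droplets, had 115, 137 and 102 CPM in fed and 105, 84.4 and 80.8 in starved vector cells, and 176, 122 and 105 in fed and 90.4, 74.3 and 95.9 in starved TRPML3 cells. It was lower in all 3 starved than in all 3 fed TRPML3 libraries and overlapped in vector cells, at -0.51 ± 0.16 on average (adjusted p = 0.367). Among SREBP processing genes, 1 of 15 was higher and 1 lower. SEC24D, a subunit of the vesicle coat that loads SCAP, had 104, 82.3 and 54.2 CPM in fed and 51.9, 54.7 and 47.6 in starved vector cells, and 93.5, 122 and 93.5 in fed and 70.6, 63.5 and 69.3 in starved TRPML3 cells. Starved values lay below fed ones throughout TRPML3 cells, with a small overlap in vector cells, at -0.62 ± 0.16 (adjusted p = 0.349).

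Of the 15 genes of the transport list, 0 were higher and 1 lower at that level, the sterol exporter ABCA1 at -0.68 ± 0.29 (adjusted p = 0.499). Of the 13 genes of the isoprenoid list, 2 were higher and 0 lower: PDSS1, a subunit of the synthase for the ubiquinone side chain, at 0.82 ± 0.25 (adjusted p = 0.367), and NUS1, a subunit of the dolichol-making prenyltransferase, at 0.47 ± 0.15 (adjusted p = 0.379). Without number 3, SEC24D was lower by 0.73 and RNF139, a ubiquitin ligase, by 1.45 on the log2 scale. SAR1B (0.78), NUS1 (0.59) and DOLK (1.61) were higher in that fit. Each of these genes was called, at an adjusted p of 0.0336 to 0.0485 by edgeR's quasi-likelihood test. Of the 15 SREBP processing genes, 1 was called higher and 2 lower. In the further sterol and fatty acid list and the transport list 0 genes were called. The fit called 4.49% of all genes. Removing number 3 favours such calls, so they are a description and not independent evidence.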

How the data were processed

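RNA from 12 cultures of HEK293T cells was analysed from a table of raw counts per gene, as deposited by the authors. Per the submitters' processing notes, FastQC, fastp, HISAT2, StringTie and DESeq2 were used with GRCh38, and no role is stated for each. The annotation, the counting program and the use of strand are not given in the sources used here, so the whole numbers may be rounded estimates. The authors' normalized table was not used. Groups came from the sample titles. All 12 libraries were fitted together with edgeR 4.0.16 (limma 3.58.1, R 4.3.3): TMM scaling, filterByExpr, 1 coefficient per group, the robust quasi-likelihood test with 8 residual degrees of freedom, and Benjamini-Hochberg adjustment over 18030 genes at 0.05. CPM use the TMM-scaled library sizes. Fold changes are log2, with the standard error derived from the F statistic. The script was tested on simulated data, with a pass mark only at a spread between replicates below that of these data. That check gives no measure of power at the spread seen here. Alternatives were other scalings, filters and samples, DESeq2 1.42.0, a replicate block and leaving out libraries.

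The members, the pathway lists and the alternatives were chosen with earlier results of these data known. Values in every library are given for 18 members: 8 chosen for their roles, and those with the smallest p in each comparison (8 for the average serum comparison, 4 for each serum comparison, 3 for each fed or starved plasmid comparison and the interaction). Of the other 13, LSS and ACACA are also given in full, and the rest by fold changes, counts or ranges. Gene positions and exon lengths came from GENCODE 29, and promoters from RefSeq. The result of 1 gene of the pathway lists is not reported here.

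Same-numbered libraries of the 2 plasmids deviated together from their group means, with correlations over genes of 0.104 to 0.356 in all 6 pairs. The highest were those of number 3, at 0.356 fed and 0.323 starved. With 3 libraries per group, a shift of number 3 alone also makes numbers 1 and 2 deviate together. Libraries of unlike number were not compared in this way, so a pairing of numbers 1 and 2 was not shown. Between fed and starved libraries of the same number the correlations ran from -0.0824 to 0.00943 and gave no pairing. The main fit used no pairing, and a pairing by number within each serum state was not fitted. No 2 libraries agreed within counting noise.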

Additional observations from a re-analysis of the deposited data

How the results depend on the processing

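Of 295 values recomputed under settings that kept all libraries of the comparison, 290 counted as unchanged, by a rule that differed by kind of value. For a gene's log2 fold change it was the same sign and side of the threshold, whatever the size of the move. For the members called it was the same count, and for a median over the members a move below 0.083 on the log2 scale. With the replicate block, 0 members were called in any comparison; EBP was at 1.21 on the log2 scale in the vector serum comparison (adjusted p = 0.898) and at -1.21 in the interaction (adjusted p = 1), and no call among the members changed. Over all genes the block moved the calls from 1 to 0 in the vector serum, from 2 to 0 in the fed plasmid, from 1 to 0 in the starved plasmid and from 2 to 1 in the average plasmid comparison. The block shared each number's shift between fed and starved libraries and did not model any pairing within a serum state. DESeq2's Wald test called 1 member, EBP, in the vector serum comparison. Scaling by library size alone moved the median over the members from -0.09 to -0.17 in the fed, from -0.06 to -0.16 in the starved and from -0.02 to -0.12 in the average plasmid comparison, while the medians over all genes moved to -0.08, -0.11 and -0.10. The cause was not tested. Over the fits that left out 1 library or 1 replicate number, the members called in the average serum comparison ran from 0 to 4, the 4 coming without replicate number 3, and stayed at 0 in the other 6 comparisons. The medians over the members ran from -0.083 to 0.059 in the vector and from 0.0019 to 0.25 in the TRPML3 serum comparison, from -0.13 to 0.0071 in the fed and from -0.057 to 0.046 in the starved plasmid comparison, and from -0.11 to 0.15 in the interaction.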
